A study of Homo sapiens with 6 samples.

Results

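The genes described here are 46 human genes of DNA replication licensing and of the replication fork, chosen by name, from the origin recognition complex to the fork protection factors. The list was drawn up with earlier results of these data known. All 46 had a row among the 57820 human gene rows of the deposited table, matched by symbol to an Ensembl identifier, and 45 of them were among the 13604 genes tested. RNA was measured in DKO1, a derivative of the HCT116 line with knockout of the DNA methyltransferase genes DNMT1 and DNMT3B, and in WT, the HCT116 parent, with 3 samples in each group. HCT116 is an established line from a human colorectal cancer, and the groups shared the medium, the RNA extraction and the stranded mRNA library kit. DKO1 is a single derived line, and what its genotype does cannot be told apart from whatever else separates it from its parent. Whether replicates were separate cultures is not stated in the labels. The p-values therefore cover the spread between the sequenced samples, which may be technical.

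Replication in human cells starts from licensed origins. In G1 the origin recognition complex, CDC6 and CDT1 load the MCM2-7 helicase onto DNA, and geminin blocks CDT1 later in the cycle so that each origin is used only once. In S phase the CDC7-DBF4 kinase and cyclin-dependent kinases activate the loaded helicase, which joins CDC45 and GINS to form the CMG helicase, and polymerase alpha-primase, the clamp PCNA and its loader, and the replicative polymerases then copy the strands. Many of these genes are transcribed under E2F control and are most active in growing cells, and RIF1 is known for delaying the replication of late domains. DNMT1 itself acts at replication forks, where it copies methylation onto the new strand.

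The genes named in the knockout were checked first. DNMT1, the maintenance methyltransferase, was at 31.1, 30.8 and 46.8 TPM in the DKO1 samples, against 245, 250 and 231 TPM in the WT samples, a log2 fold change of -2.73 (SE 0.17, adjusted p = 3.6e-05, limma). DNMT3B, a de novo methyltransferase, was at 4.86, 4.85 and 3.56 TPM in DKO1, against 8.22, 7.09 and 6.77 TPM in WT, and its log2 fold change was -0.63 (SE 0.17, adjusted p = 0.030). Transcripts of both genes remained in DKO1, and neither group overlapped the other. TPM, a scaled transcript abundance, corrects for transcript length and has the same total in every sample, so the sequencing depth is unknown and no counting interval can be given. Rows of mitochondrial genes held 26.9%, 27.7% and 21.2% of the TPM in DKO1 and 19.8% to 20.1% in WT, and 77 spike-in rows held 1.30% to 2.01% in DKO1 and 1.28% to 1.47% in WT. The number of human genes at 1 TPM or more was 13327 to 14419 in DKO1 and 12110 to 12465 in WT. The epithelial marker EPCAM was at 371 to 500 TPM in DKO1 and at 457 to 536 TPM in WT, while the brush border gene VIL1 stayed at or below 0.43 TPM in every sample. The epithelial markers did not move one way. CDH1, or E-cadherin, averaged 9.82 TPM in DKO1 and 2.97 TPM in WT (log2 fold change 1.45, adjusted p = 4.2e-04), and CLDN4 averaged 5.41 TPM in DKO1 and 2.32 TPM in WT (log2 fold change 0.95, adjusted p = 0.0044), both called under each omission of 1 sample. The keratin KRT8 averaged 219 TPM in DKO1 and 382 TPM in WT, and KRT18 averaged 87.8 TPM in DKO1 and 143 TPM in WT. Their log2 fold changes were -0.83 and -0.79, with adjusted p = 0.054 and 0.255, and 0.011 and 0.047 with the replicate number as a block. KRT19 averaged 20.9 TPM in DKO1 and 12.1 TPM in WT and was not called (adjusted p = 0.572). The 11 measured markers of blood, endothelial, fibroblast, liver and lung cells summed to 3.94 to 6.31 TPM in DKO1 and to 1.93 to 2.78 TPM in WT, with the highest single marker at 2.06 TPM. Between 0 and 2 of the 11 were listed at 0 in a DKO1 sample, and 3 or 4 in a WT sample. PTPRC, the pan-leukocyte marker, was at 0.43 to 0.61 TPM in DKO1 and was listed at 0 in all WT samples. Apart from a fit without mitochondrial and spike-in rows, given below, the part of these differences in the results was not tested.

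Promoter sequences show what surrounds the start of the member genes. Windows of 250 bases before to 50 bases after each start were taken from RefSeq on GRCh38.p14, and 40 of the 46 members had one. GINS4, MCM4, MCM5, POLD3, RPA2 and RPA3 had none. RIF1 and POLA1 are printed in full because they were the 2 called members with the largest falls. Each is on the plus strand, and the capitals mark the motif letters found on either strand.
RIF1 promoter, chr2:151409652-151409951: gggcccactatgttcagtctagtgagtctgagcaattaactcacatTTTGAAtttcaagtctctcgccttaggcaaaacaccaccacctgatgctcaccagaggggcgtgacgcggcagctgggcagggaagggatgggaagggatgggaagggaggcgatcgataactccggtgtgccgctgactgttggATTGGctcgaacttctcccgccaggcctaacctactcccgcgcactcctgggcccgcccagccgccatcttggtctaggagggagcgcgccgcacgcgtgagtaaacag
POLA1 promoter, chrX:24693668-24693967: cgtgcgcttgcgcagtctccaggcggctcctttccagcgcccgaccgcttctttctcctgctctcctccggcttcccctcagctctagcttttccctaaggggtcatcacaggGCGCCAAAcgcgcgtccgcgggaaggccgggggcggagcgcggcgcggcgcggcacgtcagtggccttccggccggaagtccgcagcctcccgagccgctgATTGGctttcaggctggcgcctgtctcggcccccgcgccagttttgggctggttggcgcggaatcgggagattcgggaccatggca
In the RIF1 window the capitals are TTTGAA, the letters of the cell-cycle homology region (CHR) element, and ATTGG, the reverse complement of the NF-Y motif CCAAT. In the POLA1 window they are the reverse complement of the E2F motif TTTNNCGC and again ATTGG. The motifs were searched on both strands with overlaps kept. The RIF1 window held 19 CG dinucleotides, the sites of DNA methylation, and the POLA1 window held 36.

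The E2F letters were present in 22 of the 40 member promoters (55.0%), against 10.9% of the 9752 promoters of tested genes and 6.90% of all 27305 promoters in the table. Among the 14 members that fell in DKO1 (below), 7 promoters held them (50%), so the promoters of the members that fell carried this motif at about the share of the whole list. CCAAT was present in 55.0% of the member promoters, in 57.1% of those of the members that fell and in 37.3% of those of tested genes. TTTGAA was present in 5.00% of the member promoters, in 14.3% of those of the members that fell (2 of 14, RIF1 and DBF4) and in 9.75% of those of tested genes. The median number of CG dinucleotides was 29 in member promoters, 30 in those of the members that fell and 26 in those of tested genes. These matches are descriptions of the letters in the windows and not evidence of binding.

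In DKO1, 14 of the 45 tested genes fell and none rose relative to WT. The genes that fell were ORC5, CDC6, GMNN, MCM6, DBF4, RIF1, POLA1, PRIM1, POLE2, RFC1, RFC3, RFC4, RFC5 and TIPIN, and their mean levels were 1.35 to 2.03 times as high in WT as in DKO1. The calls came from limma on log2(TPM + 1) over all 13604 genes, at a Benjamini-Hochberg adjusted p below 0.05, a scale on which the change of low genes is understated. Among all tested genes, 9.6% were called lower and 18.8% were called higher. At an unadjusted p below 0.05, 22 of the 45 were lower and 0 were higher. The share of all tested genes at that threshold is not given, so these 2 counts have no reference. The median log2 fold change of the 45 was -0.38, against 0.07 over all tested genes, and 35 of the 45 were negative, against 44.4% of all tested genes. All 3 DKO1 values lay below all 3 WT values for 21 members, where 17.8% of all tested genes did so, and no member had all DKO1 values above all WT values, where 27.5% of all tested genes did so. The summed TPM of all 46 genes was 3439, 3857 and 3952 in the DKO1 samples, against 4523, 4651 and 4678 in the WT samples. The sums did not overlap. In bulk samples, fewer cells in S phase and less RNA per cell cannot be told apart. TPM is also a share of a fixed total. Mitochondrial rows held more of that total in every DKO1 sample than in any WT sample. The part of this in the summed TPM was not tested.

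**Figure D1:**
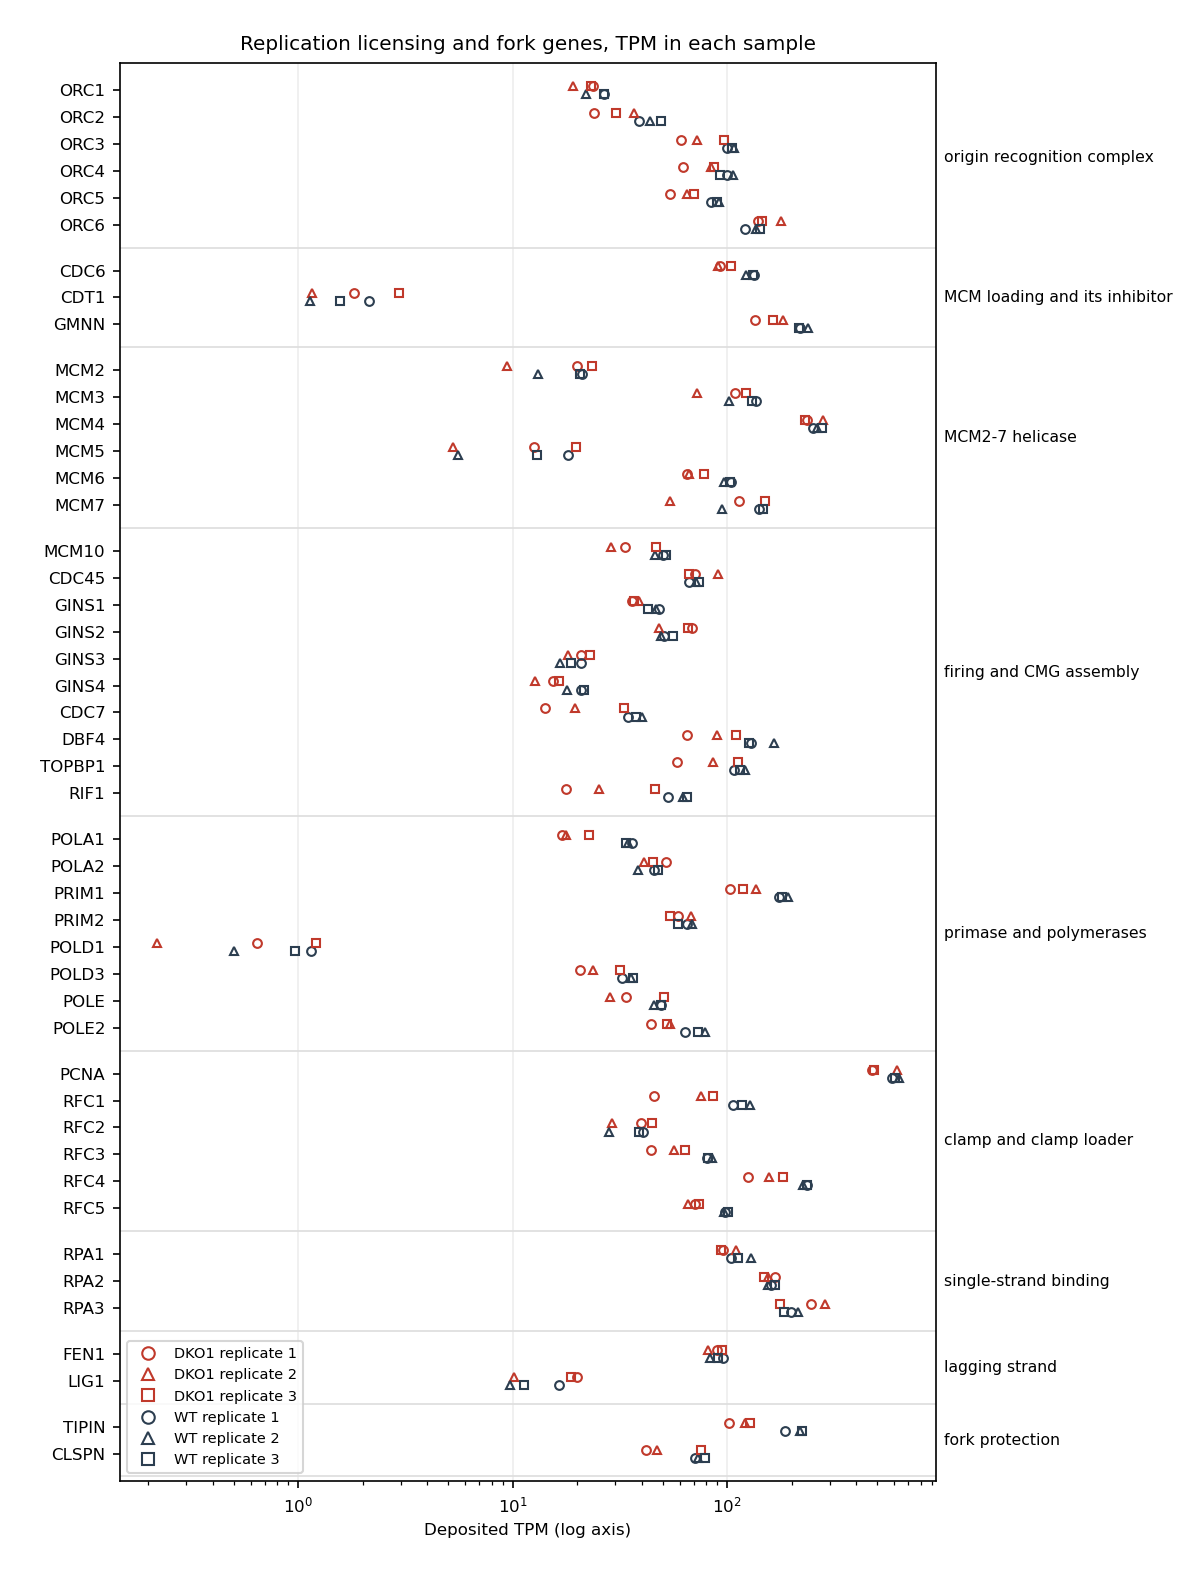
Deposited TPM of each of the 46 genes on a log axis, with DKO1 samples in red above WT samples in dark blue and a marker shape for each replicate number, grouped by role. PCNA, the highest gene, sits at 472 to 622 TPM in DKO1 and 586.5 to 632 TPM in WT, and POLD1, the lowest, at 0.22 to 1.21 TPM in DKO1 and 0.50 to 1.15 TPM in WT.

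Samples with the same replicate number deviated together in the 2 groups, so the fit was repeated with the replicate number as a block. With the block 20 members were lower and none was higher, against 13.4% and 22.4% of all tested genes. The 14 calls above were kept, and ORC2, ORC3, MCM10, GINS4, CDC7 and POLD3 were added. Many calls were lost when a WT sample was left out. Without WT replicate 1, 2 or 3, the count of members called lower was 4, 3 and 3, and the count over all tested genes was 604, 524 and 550, against 1306 with all samples. Only POLA1 and TIPIN were called under every omission of 1 sample.

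**Figure D2:**
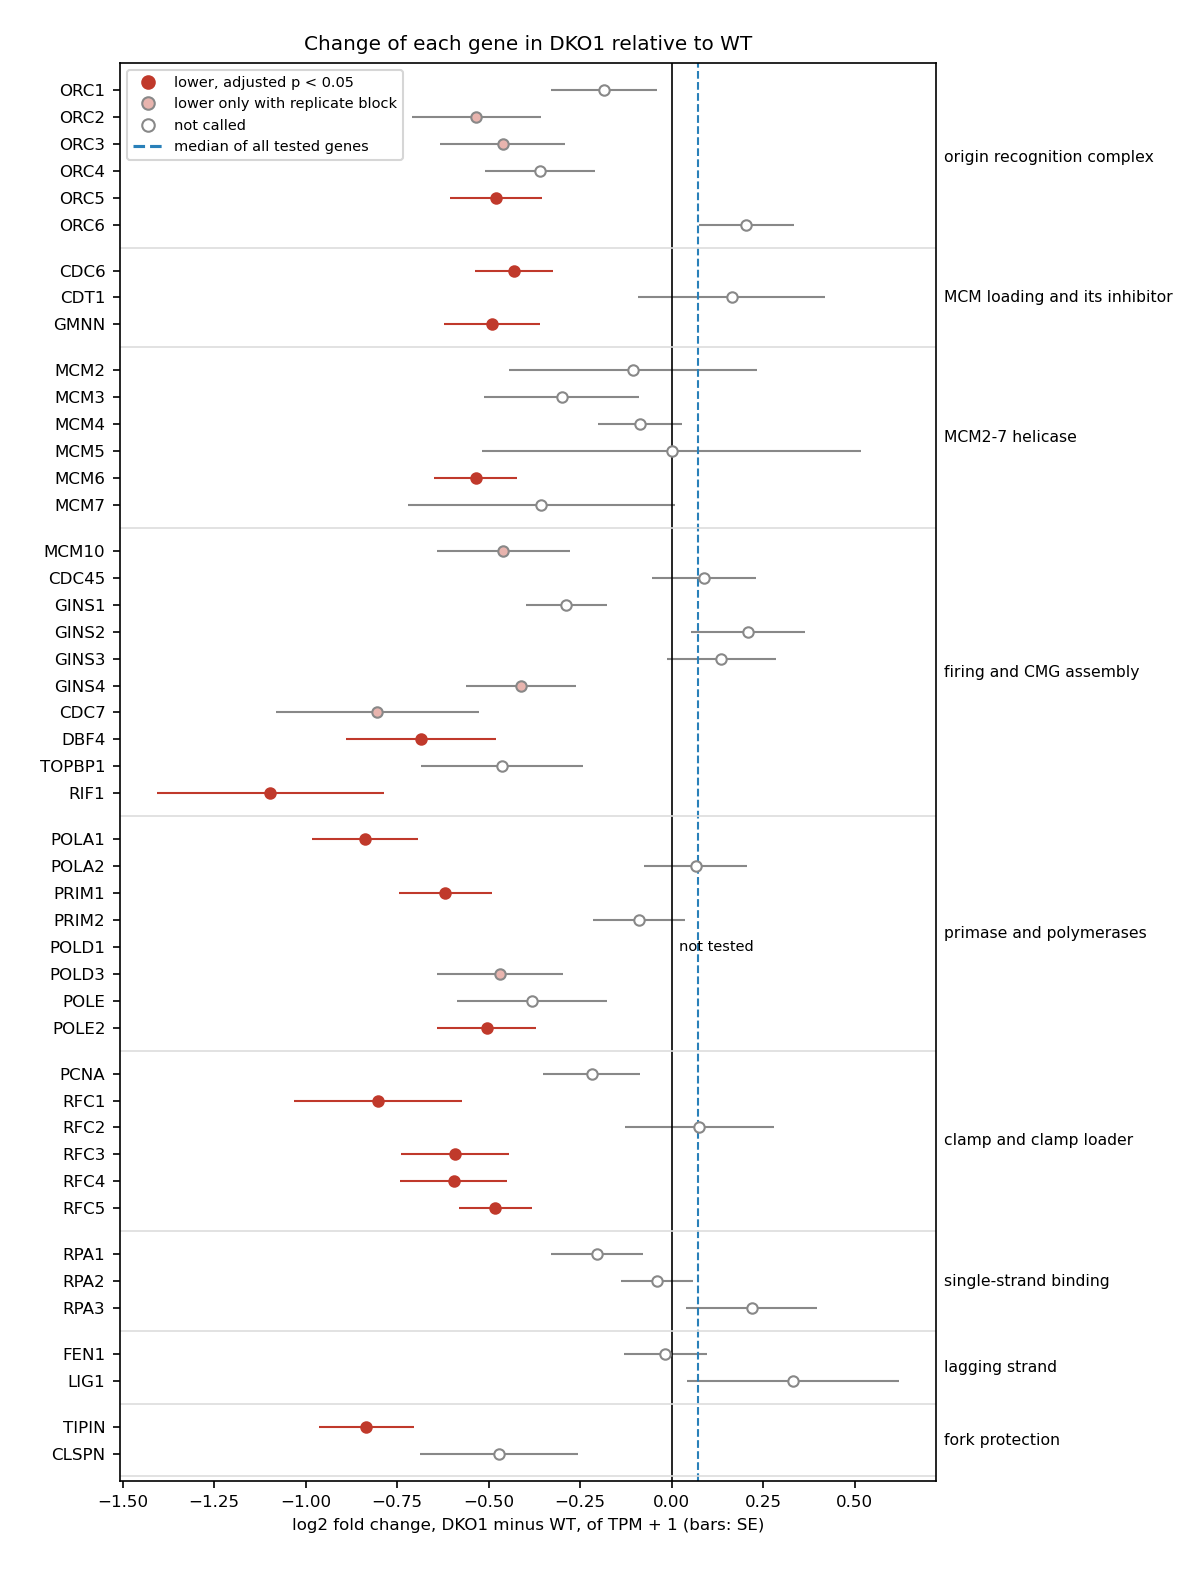
Log2 fold change of each gene on the log2(TPM + 1) scale, DKO1 minus WT, with bars of 1 SE, the zero line in black and the median of all tested genes as a dashed line at 0.07. The filled red points are the 14 genes called lower, the pale points are the 6 genes called lower only with the replicate block, and open points were not called.

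The origin recognition complex binds origins and starts helicase loading. Of its 6 subunits, ORC5 fell, and the median log2 fold change was -0.41. ORC5 (ENSG00000164815.6, chromosome 7), an ATPase-fold subunit, was at 54.3, 65.3 and 69.8 TPM in DKO1, against 83.8, 91.3 and 89.2 TPM in WT. Every DKO1 sample lay below every WT sample, and the log2 fold change was -0.48 (SE 0.13, adjusted p = 0.027). The ORC5 call was lost without WT replicate 1, 2 or 3 (adjusted p = 0.074, 0.109 and 0.105). ORC2 was at 23.9, 36.6 and 30.2 TPM in DKO1, against 38.8, 43.5 and 49.0 TPM in WT, and ORC3 was at 61.1, 72.4 and 96.6 TPM, against 99.8, 108 and 105 TPM. Neither overlapped between groups, and each passed only with the block (adjusted p = 0.060 without and 0.023 with the block for ORC2, and 0.082 and 0.040 for ORC3). ORC4 was at 62.5, 84.4 and 86.8 TPM in DKO1, against 99.5, 106 and 92.7 TPM in WT (log2 fold change -0.36, adjusted p = 0.115). The groups did not overlap for ORC4 either, although it was not called. ORC1, the subunit that is degraded after G1 in human cells, overlapped between groups, at 19.0 to 23.6 TPM in DKO1 and 22.0 to 26.7 TPM in WT (log2 fold change -0.19). ORC6, the subunit least tightly held in the human complex, had the only positive value, 0.20 (adjusted p = 0.287), at 139 to 178 TPM in DKO1 and 122 to 142 TPM in WT. ORC6 was also the highest and ORC1 the lowest of the 6 in both groups, with a ratio of mean TPM of 7.05 in DKO1 and 5.33 in WT.

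Of the factors that load MCM2-7 and the inhibitor of loading, both CDC6 and GMNN fell. CDC6 (ENSG00000094804.5, chromosome 17), the ATPase that recruits CDT1 and MCM2-7 to the origin recognition complex, was at 93.0, 90.2 and 104 TPM in DKO1, against 134, 123 and 131 TPM in WT. The groups did not overlap, and the log2 fold change was -0.43 (SE 0.11, adjusted p = 0.021). GMNN (ENSG00000112312.5, chromosome 6) encodes geminin, which holds CDT1 inactive. It was at 135, 182 and 164 TPM in DKO1, against 218, 238 and 217 TPM in WT, with no overlap and a log2 fold change of -0.49 (SE 0.13, adjusted p = 0.030). Neither call held without 1 WT replicate: leaving out replicate 1, 2 or 3 gave adjusted p = 0.096, 0.067 and 0.097 for CDC6 and 0.087, 0.117 and 0.091 for GMNN. Quantile normalization also ended both calls (adjusted p = 0.086 for CDC6 and 0.079 for GMNN).

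CDT1 (ENSG00000167513.4, chromosome 16), the partner of the MCM2-7 complex in loading, was listed far below the other loading genes. It was at 1.82, 1.16 and 2.95 TPM in DKO1, against 2.14, 1.13 and 1.56 TPM in WT, with overlapping groups (log2 fold change 0.16, adjusted p = 0.676). CDT1 is one of the GC-richest of the 46 transcripts, at 64.9%. As a percentage of the GMNN level in the same sample, CDT1 was at 1.35, 0.639 and 1.80 in DKO1, against 0.981, 0.474 and 0.720 in WT. The ratio was thus highest in DKO1 replicate 3 and lowest in WT replicate 2, and within each group it was lowest in replicate 2. The log2 ratio averaged -6.44 ± 0.77 in DKO1 and -7.17 ± 0.53 in WT (SD, n = 3 each), a difference of 0.74 that did not pass a two-sided exact permutation test (p = 0.3, where 3 against 3 samples allow 0.1 at the lowest). Between samples with the same replicate number, DKO1 was higher than WT in 3 of 3 pairs, by 0.46, 0.43 and 1.32 on the log2 scale. A two-sided exact sign-flip test over the pairs, added after the data were seen, gave p = 0.25, the smallest that 3 pairs allow.

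The MCM2-7 helicase unwinds DNA ahead of the fork, with 6 related ATPase subunits. Only MCM6 among them fell, and the median log2 fold change of the 6 was -0.20. MCM6 (ENSG00000076003.4, chromosome 2) was at 65.1, 66.3 and 78.1 TPM in DKO1, against 104, 96.9 and 104 TPM in WT. Its groups did not overlap, and the log2 fold change was -0.54 (SE 0.11, adjusted p = 0.012), with adjusted p = 0.059 without WT replicate 1 and 0.063 without WT replicate 3. MCM4 was the highest subunit, at 236, 279 and 230.3 TPM in DKO1 and 251, 262 and 277 TPM in WT (log2 fold change -0.09, adjusted p = 0.614). Its small difference was positive with quantile normalization (0.09) and without mitochondrial and spike-in rows (0.02). MCM5 was the lowest subunit, with mean TPM of MCM4 19.8 times that of MCM5 in DKO1 and 21.5 times in WT, although the complex holds its subunits in equal numbers.

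The other MCM subunits varied widely between replicates. MCM5 was at 12.6, 5.28 and 19.7 TPM in DKO1, against 18.2, 5.56 and 13.01 TPM in WT, a log2 fold change of 0.00 (SE 0.52, adjusted p = 0.999). MCM2 was at 20.1, 9.45 and 23.5 TPM in DKO1, against 21.1, 13.1 and 20.5 TPM in WT (log2 fold change -0.11, adjusted p = 0.845). In both genes the low sample was replicate 2 in each group. MCM7 was at 113, 54.1 and 151 TPM in DKO1, against 140.0, 94.8 and 147 TPM in WT (log2 fold change -0.36, SE 0.36, adjusted p = 0.510), and MCM3 was at 109, 72.2 and 122 TPM, against 136, 102 and 130 TPM (log2 fold change -0.30, adjusted p = 0.332). Replicate 2 was again lowest in both groups for both genes. The direction was not stable for MCM5, whose log2 fold change ran from -0.44 without WT replicate 2 to 0.47 without DKO1 replicate 2, nor for MCM2 (-0.35 to 0.27) and MCM7 (-0.67 to 0.06) when 1 sample was left out.

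This pattern moved with transcript GC content. Replicate 2 was the lowest of its group in both DKO1 and WT for 18 of the 46 genes, whose transcripts had a median GC content of 53.6% (43.3% to 65.0%). It was the highest of its group in both for 7 genes (GMNN, PRIM1, PRIM2, POLE2, PCNA, RPA1 and RPA3), with a median of 43.7% (40.1% to 48.2%). Across the 46 genes, the deviation of replicate 2 from the mean of replicates 1 and 3 on the log2 scale had a correlation with GC content of -0.69 in DKO1 and -0.74 in WT. Over 13225 tested genes with a GC value, which share these 6 libraries, the deviation of DKO1 replicate 2 had a correlation of -0.56 with GC content and that of WT replicate 2 one of -0.48, while the values for replicate 1 were 0.54 in DKO1 and 0.39 in WT. The difference between DKO1 and WT had a weaker correlation, 0.16. The members had a median GC content of 45.0%, against 47.0% for all tested genes.

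**Figure D3:**
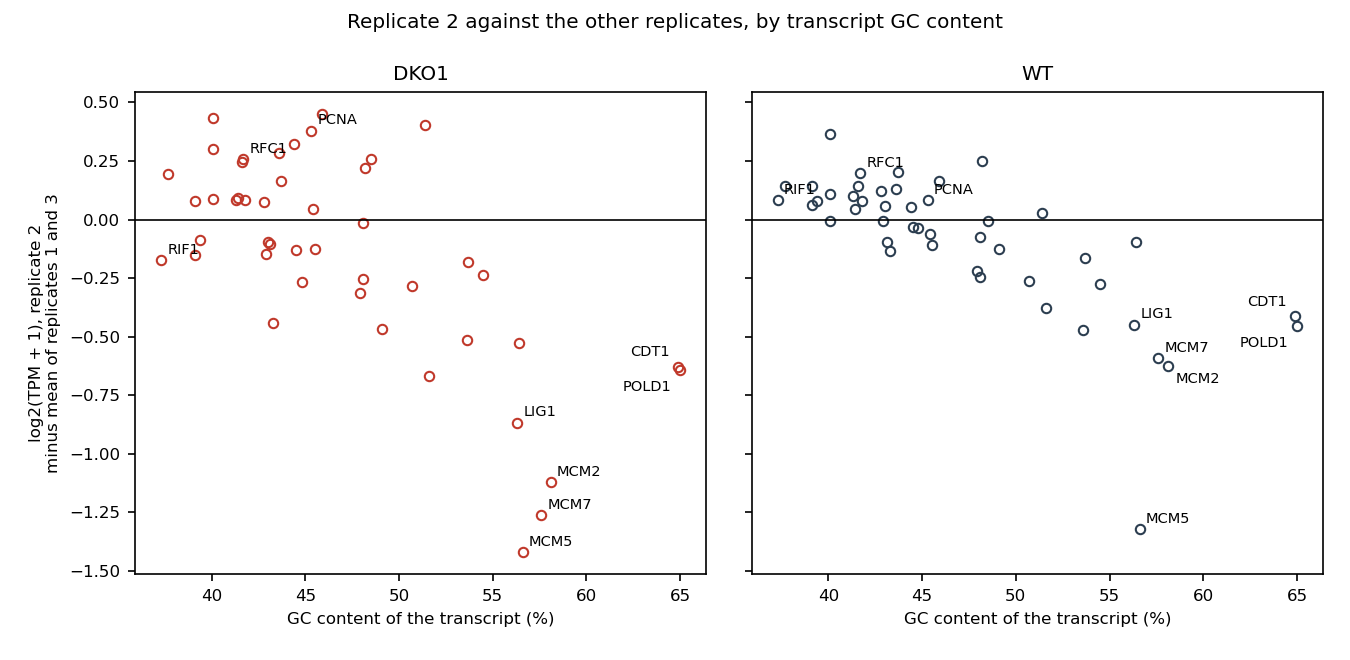
Deviation of replicate 2 from the mean of replicates 1 and 3, on the log2(TPM + 1) scale, against transcript GC content in percent, for the 46 genes in DKO1 (left) and WT (right). The GC-rich genes MCM5, MCM2, MCM7, CDT1, LIG1 and POLD1 lie below zero in both groups, while most genes under 45% GC lie near or above it.

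With a smooth GC trend removed from each sample, together with the replicate block, 27 members were lower and none was higher, where 20.6% of all tested genes were lower and 22.8% were higher. This setting was chosen after the data were seen. The trend was taken from each sample's deviation from the mean of all 6 samples. A GC-dependent difference between DKO1 and WT was therefore removed along with that between replicates. The 14 genes named above were all among the 27. Of the MCM subunits, MCM2, MCM3 and MCM7 passed in addition to MCM6, with log2 fold changes of -0.33 (adjusted p = 0.039), -0.52 (adjusted p = 0.0040) and -0.58 (adjusted p = 0.0043). ORC1, TOPBP1, POLE, RPA1 and CLSPN passed as well, and ORC2, called with the block alone, did not (adjusted p = 0.054). The median log2 fold change of the members was -0.40 in this setting, against -0.01 for all tested genes. With the block alone, MCM2, MCM3 and MCM7 had log2 fold changes of -0.11, -0.30 and -0.36 and did not pass (adjusted p = 0.629, 0.081 and 0.134).

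Among the 10 genes of origin firing and CMG assembly, RIF1 and DBF4 fell, and RIF1 had the largest change of the 45 genes tested. RIF1 (ENSG00000080345.13, chromosome 2) brings protein phosphatase 1 to origins, where it opposes the CDC7-DBF4 kinase, and it is known as a regulator of replication timing. It was at 17.7, 25.4 and 46.1 TPM in DKO1, against 53.3, 62.3 and 65.0 TPM in WT. The groups did not overlap, though DKO1 replicate 3 was well above the other DKO1 samples and closest to WT. The mean was 29.7 ± 14.7 TPM in DKO1 and 60.2 ± 6.17 TPM in WT (SD, n = 3 each), and the log2 fold change was -1.10 (SE 0.31, adjusted p = 0.035, and 0.0075 with the block). The RIF1 call held only without DKO1 replicate 3 (adjusted p = 0.0018) among the 6 omissions and was lost under the others (0.082 and 0.071 without DKO1 replicates 1 and 2, and 0.076, 0.097 and 0.117 without WT replicates 1, 2 and 3).

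DBF4 (ENSG00000006634.3, chromosome 7), the activating subunit of the CDC7 kinase, was at 65.1, 89.8 and 109.8 TPM in DKO1, against 129, 165 and 126 TPM in WT. The groups did not overlap, and the log2 fold change was -0.68 (SE 0.21, adjusted p = 0.043, and 0.019 with the block). The call was likewise kept only without DKO1 replicate 3, with adjusted p = 0.088 and 0.065 without DKO1 replicates 1 and 2, and 0.092, 0.144 and 0.092 without WT replicates 1, 2 and 3. CDC7, the catalytic subunit, was at 14.1, 19.4 and 33.2 TPM in DKO1, against 34.5, 39.95 and 37.6 TPM in WT. It showed the same order of DKO1 samples as DBF4 and RIF1, and its log2 fold change of -0.80 (SE 0.28) passed only with the block (adjusted p = 0.068 without it and 0.026 with it).

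The other firing factors differed less. MCM10, which helps to activate the CMG helicase, was at 33.5, 28.8 and 46.7 TPM in DKO1, against 50.2, 46.3 and 51.7 TPM in WT (log2 fold change -0.46, adjusted p = 0.10, and 0.041 with the block). Its groups overlapped through DKO1 replicate 3. TOPBP1, which helps to bring GINS to the helicase and activates the ATR kinase, was at 58.6, 85.5 and 112 TPM in DKO1, against 108, 121 and 114 TPM in WT (log2 fold change -0.46, adjusted p = 0.162), and DKO1 replicate 3 lay within the WT range. CDC45, a core part of the CMG helicase, was at 66.2 to 90.9 TPM in DKO1 and 66.5 to 74.2 TPM in WT (log2 fold change 0.09, adjusted p = 0.690). The 4 GINS subunits, which form 1 complex, did not move together. GINS4 was at 15.4, 12.7 and 16.5 TPM in DKO1, against 20.7, 18.0 and 21.5 TPM in WT, without overlap (log2 fold change -0.41, adjusted p = 0.081, and 0.042 with the block), and GINS1 was at 36.1 to 39.0 TPM, against 42.6 to 48.2 TPM (log2 fold change -0.29, adjusted p = 0.093). GINS2 and GINS3 had positive values, 0.21 and 0.14, with overlapping groups (adjusted p = 0.362 and 0.541). Whether the subunits differed from each other was not tested.

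Of the 8 genes of primase and the replicative polymerases, POLA1, PRIM1 and POLE2 fell. POLA1 (ENSG00000101868.6, chromosome X), whose promoter is printed above, is the catalytic subunit of polymerase alpha, which extends each primer. It was at 17.0, 17.7 and 22.8 TPM in DKO1, against 35.9, 34.7 and 33.6 TPM in WT. The groups lay far apart, at 19.1 ± 3.17 TPM in DKO1 and 34.7 ± 1.16 TPM in WT (SD, n = 3 each), with a log2 fold change of -0.84 (SE 0.14, adjusted p = 0.0046). The POLA1 call held under each omission of 1 sample, with adjusted p up to 0.028. PRIM1 (ENSG00000198056.9, chromosome 12), the catalytic subunit of primase, was at 103, 136 and 118 TPM in DKO1, against 175, 191 and 180 TPM in WT, a log2 fold change of -0.62 (SE 0.13, adjusted p = 0.010). Its groups did not overlap, and the call was lost only without WT replicate 2 (adjusted p = 0.052) among the omissions. The partner subunits of the same 4-subunit complex did not pass. POLA2 was at 40.8 to 51.7 TPM in DKO1 and 38.2 to 47.5 TPM in WT (log2 fold change 0.07, adjusted p = 0.767), and PRIM2 was at 54.4 to 67.6 TPM in DKO1 and 59.0 to 68.5 TPM in WT (log2 fold change -0.09, adjusted p = 0.641). PRIM2 has a near-identical partial copy in the genome, so its level is uncertain. The direction of both genes changed with the scaling: POLA2 was at -0.01 with median-ratio scaling, and PRIM2 was at 0.00 with quantile normalization and 0.02 without mitochondrial and spike-in rows.

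POLE2 (ENSG00000100479.8, chromosome 14), the second subunit of the leading-strand polymerase epsilon, was at 44.1, 54.2 and 52.6 TPM in DKO1, against 63.3, 78.7 and 73.4 TPM in WT. Its groups did not overlap, and the log2 fold change was -0.51 (SE 0.14, adjusted p = 0.029), with adjusted p = 0.066 without DKO1 replicate 1, 0.124 without WT replicate 2 and 0.112 without WT replicate 3. POLE, the catalytic subunit, was at 33.8, 28.4 and 50.6 TPM in DKO1, against 48.9, 45.7 and 49.0 TPM in WT (log2 fold change -0.38, adjusted p = 0.207), and DKO1 replicate 3 was its highest sample. POLD3, an accessory subunit of polymerase delta, was at 20.5, 23.8 and 31.6 TPM in DKO1, against 32.4, 35.8 and 36.5 TPM in WT, without overlap (log2 fold change -0.47, adjusted p = 0.081, and 0.035 with the block). POLD1, the catalytic subunit of polymerase delta, was listed at 0.64, 0.22 and 1.21 TPM in DKO1, against 1.15, 0.50 and 0.97 TPM in WT. It reached 1 TPM in fewer than 3 samples and was not tested. Its transcript had the highest GC content of the 46, 65.0%, and like CDT1 it was lowest in replicate 2 of each group. Polymerase delta is needed by all dividing cells, and whether the low listed level reflects the amount of POLD1 RNA was not tested.

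Of the 5 subunits of the clamp loader RFC, which opens the PCNA ring and places it on DNA, 4 fell. RFC1 (ENSG00000035928.10, chromosome 4), the large subunit particular to the replicative loader, was at 45.5, 75.2 and 86.2 TPM in DKO1, against 107, 128 and 117 TPM in WT (log2 fold change -0.80, SE 0.23, adjusted p = 0.037). RFC4 (ENSG00000163918.6, chromosome 3) was at 126, 156 and 182 TPM in DKO1, against 236, 225 and 235 TPM in WT (log2 fold change -0.60, SE 0.15, adjusted p = 0.021). In both genes DKO1 replicate 1 was the lowest sample, and all DKO1 samples lay below all WT samples. RFC3 (ENSG00000133119.8, chromosome 13) was at 44.3, 56.3 and 63.9 TPM in DKO1, against 80.9, 84.7 and 81.2 TPM in WT (log2 fold change -0.59, SE 0.15, adjusted p = 0.023). RFC5 (ENSG00000111445.9, chromosome 12) was at 70.9, 65.9 and 73.5 TPM in DKO1, against 97.7, 96.7 and 100.4 TPM in WT (log2 fold change -0.48, SE 0.10, adjusted p = 0.011). RFC3, RFC4 and RFC5 are small subunits shared with the alternative loaders, and neither RFC3 nor RFC5 overlapped between groups. All 4 calls were lost when WT replicate 1, 2 or 3 was left out. The adjusted p then came to 0.080, 0.116 and 0.110 for RFC1, 0.075, 0.086 and 0.081 for RFC3, 0.078, 0.065 and 0.083 for RFC4, and 0.053, 0.054 and 0.064 for RFC5.

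RFC2, the remaining small subunit, was at 39.5, 29.2 and 44.8 TPM in DKO1, against 40.3, 28.2 and 38.7 TPM in WT, with overlapping groups (log2 fold change 0.07, adjusted p = 0.817). It was the lowest subunit in both groups, and the ratio of the mean TPM of RFC4 to that of RFC2 was 4.09 in DKO1 and 6.49 in WT. PCNA, the clamp itself, was at 472, 622 and 484 TPM in DKO1, against 586.5, 632 and 606 TPM in WT, and DKO1 replicate 2 lay within the WT range (log2 fold change -0.22, adjusted p = 0.258). PCNA has processed pseudogene copies, which could share its reads.

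Replication protein A, which coats single-stranded DNA, had no called subunit. RPA1 was at 95.9, 110.3 and 93.5 TPM in DKO1, against 105, 129 and 113 TPM in WT (log2 fold change -0.20, adjusted p = 0.266), and RPA2 was at 166, 156 and 149 TPM, against 161, 156 and 167 TPM (log2 fold change -0.04, adjusted p = 0.798, and 0.07 after quantile normalization or without mitochondrial and spike-in rows). RPA3, the smallest subunit, was at 245, 285 and 177 TPM in DKO1, against 198, 214.5 and 184 TPM in WT (log2 fold change 0.22, adjusted p = 0.405). DKO1 replicate 3 was its lowest sample and the other DKO1 samples its highest, and without that library RPA3 was called higher (adjusted p = 0.039). FEN1, the nuclease that trims Okazaki fragments, was at 90.0, 81.3 and 94.7 TPM in DKO1, against 95.2, 83.0 and 91.0 TPM in WT (log2 fold change -0.02, adjusted p = 0.925, and 0.10 and 0.09 in the same alternative scalings). LIG1, the ligase that joins the fragments, was at 19.9, 10.1 and 18.7 TPM in DKO1, against 16.5, 9.74 and 11.3 TPM in WT. It had the highest log2 fold change of the 45 genes tested, 0.33 (SE 0.29, adjusted p = 0.438), within the spread between replicates.

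Of the fork protection factors, TIPIN fell. TIPIN (ENSG00000075131.5, chromosome 15), the partner of TIMELESS in the complex that travels with the fork, was at 102, 121 and 128 TPM in DKO1, against 185, 218 and 222 TPM in WT. The groups did not overlap, at 117 ± 13.4 TPM in DKO1 and 208 ± 20.1 TPM in WT (SD, n = 3 each), and the log2 fold change was -0.83 (SE 0.13, adjusted p = 0.0029). The call held under each omission of 1 sample, with adjusted p up to 0.021. TIMELESS, which is outside the 46 genes, was at 29.9 ± 6.43 TPM in DKO1 and 32.7 ± 2.87 TPM in WT and was not called (log2 fold change -0.14, adjusted p = 0.593, and 0.441 with the block). With the GC trend removed together with the block, TIMELESS was called lower (log2 fold change -0.36, adjusted p = 0.027). CLSPN, or claspin, which carries the ATR signal to CHK1 at stalled forks, was at 42.0, 46.8 and 75.9 TPM in DKO1, against 71.0, 72.7 and 78.5 TPM in WT. Its DKO1 replicate 3 lay within the WT range, and it was not called with or without the block (log2 fold change -0.47, adjusted p = 0.145, and 0.054 with the block).

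The DKO1 samples themselves differed in how far they lay from WT. The median difference of the members from their WT mean was -0.47 in DKO1 replicate 1, -0.42 in replicate 2 and -0.16 in replicate 3 on the log2 scale, while the WT samples lay between -0.004 and 0.03. Among the 14 genes that fell, DKO1 replicate 1 was the lowest DKO1 sample for 12 and DKO1 replicate 3 the highest for 11. The members in replicate 3 lay above the mean of DKO1 replicates 1 and 2 by a median of 0.23, and all tested genes by a median of 0.17. DKO1 replicate 3 was also the DKO1 sample with the lowest mitochondrial share and the most genes at 1 TPM or more. Without mitochondrial and spike-in rows, 10 members were called lower, and the median was -0.26 for the members and 0.19 for all tested genes. In that fit 1073 of all 14439 tested genes were called lower and 3489 higher, against 1306 and 2558 of 13604 in the main fit. The part of the number of genes in the results was not tested.

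Of the genes around the 46 in the same pathway, most calls were lower, in lists set beside the 9.6% lower and 18.8% higher of all tested genes. Counts with the block are set beside the 13.4% lower and 22.4% higher of all tested genes with the block. Among 21 tested replisome neighbours, 4 were lower and 1 higher, and with the block 8 and 1. TOP1, the topoisomerase that relieves supercoils ahead of the fork, was at 97.6, 116 and 116 TPM in DKO1, against 252, 263 and 228 TPM in WT, with a log2 fold change of -1.17 (adjusted p = 3.2e-04) that passed under each omission of 1 sample. MTBP, a partner of the firing factor treslin, was at 15.8, 23.5 and 35.3 TPM in DKO1, against 44.6, 48.9 and 45.8 TPM in WT (log2 fold change -0.95, adjusted p = 0.032). POLE4, a small subunit of polymerase epsilon, rose to 30.1, 21.8 and 29.5 TPM in DKO1, against 17.3, 13.6 and 16.2 TPM in WT (log2 fold change 0.75, adjusted p = 0.016). The largest adjusted p without 1 sample was 0.097 for MTBP and 0.070 for POLE4. Polymerase epsilon thus held 1 subunit that fell, POLE2, and 1 that rose, POLE4.

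Among 11 genes that control licensing, 3 were lower and 1 was higher. SKP2, the ubiquitin ligase subunit that targets CDT1 and p27, was at 39.7, 51.0 and 43.9 TPM in DKO1, against 77.8, 80.1 and 74.2 TPM in WT (log2 fold change -0.78, adjusted p = 0.0033, called under each omission). CUL4A, the scaffold of the ligase that destroys CDT1 in S phase, was at 53.7, 55.0 and 93.5 TPM in DKO1, against 109.9, 109 and 108 TPM in WT (log2 fold change -0.73, adjusted p = 0.038, up to 0.116 without 1 sample), and CUL1, the scaffold of the SKP2 ligase, fell by 0.49 on the log2 scale (adjusted p = 0.025, up to 0.098 without 1 sample). These genes and GMNN act on CDT1 protein, which RNA levels do not measure. CCNF, named because it was the only gene called higher, rose by 0.48 on the log2 scale (adjusted p = 0.032, up to 0.127 without 1 sample). That call was lost with the GC trend removed together with the block (log2 fold change 0.26, adjusted p = 0.139).

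Among 18 E2F, RB-family and S-phase cyclin genes, 3 were lower and none higher. At an unadjusted p below 0.05, where no share of all tested genes is given, 3 were lower and 1 higher. CCNE2, cyclin E2, was at 20.8, 27.3 and 41.2 TPM in DKO1, against 47.1, 56.5 and 54.4 TPM in WT (log2 fold change -0.85, adjusted p = 0.033). RBL1, or p107, had a log2 fold change of -0.66 and E2F3 one of -0.53 (adjusted p = 0.032 and 0.016). The list's median was -0.09, close to that of all tested genes, 0.07. The largest adjusted p without 1 sample was 0.108 for CCNE2, 0.106 for RBL1 and 0.080 for E2F3. Among 12 nucleotide supply genes, CTPS1, which makes CTP, and RRM1, the large subunit of ribonucleotide reductase, fell by 0.57 and 0.43 on the log2 scale (adjusted p = 0.0089 and 0.015, up to 0.055 and 0.079 without 1 sample), and the list's median was -0.08.

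Among 9 checkpoint genes CHEK1, the kinase that holds back late origins under stress, fell to 91.1, 112 and 128 TPM in DKO1, against 148, 172 and 160.3 TPM in WT (log2 fold change -0.55, adjusted p = 0.028, up to 0.110 without 1 sample). With the block 3 of the 9 were lower. Among 10 tested genes of chromatin assembly behind forks, SUPT16H, a subunit of the histone chaperone FACT, was called, with a log2 fold change of -0.64 (adjusted p = 0.032, up to 0.102 without 1 sample), and with the block 4 were lower. The medians of the checkpoint and the chromatin assembly lists were 0.00 and -0.29.

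Genes of G2 and M phase, which mark dividing cells by another phase, gave 1 lower and 1 higher of 22 tested, and a median of -0.22. With the block 4 were lower and 2 higher, where 13.4% and 22.4% of all tested genes were. BUB1, a spindle checkpoint kinase, was at 49.4, 60.7 and 67.2 TPM in DKO1, against 112, 125 and 103 TPM in WT (log2 fold change -0.94, adjusted p = 0.0028, called under each omission). PTTG1, or securin, rose by 0.46 on the log2 scale (adjusted p = 0.028, up to 0.106 without 1 sample). With the GC trend removed together with the block its value was 0.27 and the call was lost (adjusted p = 0.097). In that setting no gene of this list was called higher and 5 were lower. POLD4 and POLE4 among the replisome neighbours, E2F7 and RBL2 in the E2F list and SAMHD1 in nucleotide supply were called higher there. Those lists then held 10, 5 and 2 genes called lower, and 22.8% of all tested genes were higher and 20.6% lower. The proliferation marker MKI67 was at 92.4, 114 and 117 TPM in DKO1, against 111, 114 and 113 TPM in WT, with overlapping groups and a log2 fold change of -0.08 (adjusted p = 0.686). Whether the licensing and fork genes differed from these other lists was not tested.

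**Figure D4:**
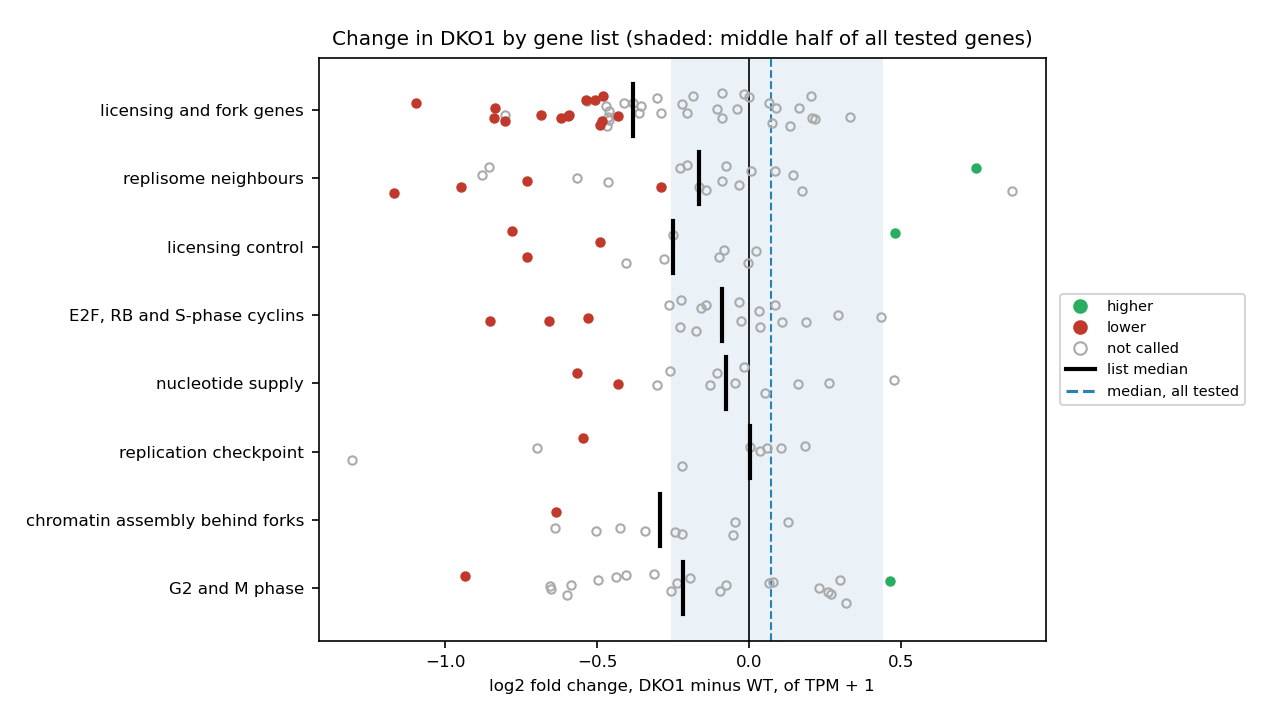
Log2 fold change of each tested gene in the 46-gene list and in 7 related lists, with the list median as a black bar, the median of all tested genes as a dashed line, and the middle 50% of all tested genes shaded. The licensing and fork genes have a median of -0.38 with 14 red points and no green one. The replisome neighbours, licensing control and G2 and M lists each hold a gene called higher. With the GC trend removed together with the block (not drawn), the licensing control and G2 and M lists lost that call. The replisome neighbours, E2F and nucleotide supply lists then held 2, 2 and 1 called higher.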

How the data were processed

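The authors deposited 1 table of TPM per gene, rounded to 2 decimals, for 3 DKO1 and 3 WT samples. Per the submitters' processing notes, the tools were RSEM 1.2.21, STAR 2.5.3a, edgeR 3.12.1, FastQC and Trim Galore 0.4.0, on builds hg19 and GRCh37, with no role or order stated. The strand setting of the counting is not given in the sources used here, nor is the annotation release. Overlapping and antisense genes cannot be told apart with certainty. TPM keeps no depth.

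From these values, human genes reaching 1 TPM in 3 or more of the 6 samples were kept. Their log2(TPM + 1) was fitted with limma 3.58.1 (R 4.3.3) on genotype alone, with a variance trend. P-values were adjusted by Benjamini-Hochberg over all genes tested, and the code was tested on simulated data. The members, the role lists and the related lists were chosen with earlier results of these data known. Each member was named, each related list gave up to 3 called genes with the largest absolute log2 fold change, and the promoters printed were those of the 2 called members with the largest falls. Symbols came from the gene name table, with gaps filled from RefSeq and then GENCODE v29, and 52338 of the 57820 human rows had one. Chromosomes came from GENCODE v29, with gaps filled from RefSeq.

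Pairing was checked by the deviations from the group mean: samples with the same replicate number correlated at 0.35, 0.57 and 0.27 for numbers 1, 2 and 3, so the replicate number was also fitted as a block. GC content was that of the longest protein-coding transcript of each gene in GENCODE v29 on GRCh38, or of the longest transcript where none was protein-coding. It had a value for 97.2% of tested genes and all 46 members. Its trend in each sample's deviation from the mean of all 6 samples was removed by loess. This correction was added after the data were seen. The fit was also repeated without each sample, without a variance trend, without mitochondrial and spike-in rows, with quantile or median-ratio scaling, with a filter at a mean of 5 TPM or no filter, and with a pseudocount of 0.1.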

Additional observations from a re-analysis of the deposited data

How the results depend on the processing

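The median log2 fold change of the members was negative in every alternative, from -0.49 without DKO1 replicate 3 to -0.26 without mitochondrial and spike-in rows, where all tested genes had a median of 0.19. With quantile normalization the members were at -0.30 and all tested genes at -0.07. The replicate block gave 20 members called lower and the GC trend removed with the replicate block gave 27, against 14. Leaving out 1 sample gave 3 to 21 called lower and 0 to 1 called higher. Over all 13604 tested genes these fits called 524 to 2079 lower and 1705 to 2842 higher, and the most lower calls in both counts came without DKO1 replicate 3. In the other alternatives 10 to 21 were called lower, and none of the 14 called members changed sign. The 10 came without mitochondrial and spike-in rows, where 1073 of 14439 tested genes were lower. The 21 came with the GC trend removed without the block, where 2127 of 13225 were lower. Calls were lost for DBF4 (adjusted p = 0.077), RIF1 (0.069) and RFC1 (0.069) with no filter, for ORC5 (0.0504), GMNN (0.070), DBF4 (0.0505) and POLE2 (0.061) without mitochondrial and spike-in rows, for CDC6 and GMNN with quantile normalization, and for DBF4 (0.054) with no variance trend. The cause was not tested.

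Members that were not called changed sign as follows, with the log2 fold change in that setting. Quantile normalization gave CDT1 -0.29, MCM4 0.091, MCM5 -0.15, PRIM2 0.0017, RPA2 0.068 and FEN1 0.10. Dropping mitochondrial and spike-in rows gave MCM4 0.024, PRIM2 0.021, RPA2 0.071 and FEN1 0.093. Removing the GC trend, with or without the block, gave CDT1 -0.022, MCM5 -0.23, CDC45 -0.13, GINS3 -0.035, POLA2 -0.16 and RFC2 -0.15. Median-ratio scaling gave MCM5 -0.070 and POLA2 -0.0077, and a pseudocount of 0.1 gave MCM5 -0.0020. Leaving out 1 sample gave ranges of -0.047 to 0.18 for CDC45, -0.063 to 0.37 for CDT1, -0.072 to 0.043 for FEN1, -0.35 to 0.27 for MCM2, -0.44 to 0.47 for MCM5, -0.67 to 0.063 for MCM7, -0.026 to 0.15 for POLA2 and -0.083 to 0.25 for RFC2. Without 1 sample, the difference in the log2 ratio of CDT1 to GMNN ran from 0.42 to 1.16. TPM keeps no depth, so the counting error of low genes such as CDT1 and POLD1 is unknown.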

Other observations

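ATR, the kinase of the replication checkpoint, had one of the largest differences among the related genes and was chosen after its values were seen. It was at 9, 10.9 and 33.7 TPM in DKO1, against 34.6, 40.5 and 41.4 TPM in WT, with no overlap but with DKO1 replicate 3 close to WT. Its log2 fold change was -1.31 (adjusted p = 0.059, and 0.017 with the replicate block). WDHD1, chosen likewise, which links polymerase alpha to the CMG helicase, was at 43.8 ± 19.5 TPM in DKO1 and 76.6 ± 3.75 TPM in WT (SD, n = 3 each), with a log2 fold change of -0.88 (adjusted p = 0.051, and 0.019 with the block).

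Some related genes with GC-rich transcripts had low listed levels in both groups. They were picked outside the rule for naming related genes, and the relation of level to GC content over all genes was not tested. CHTF18, the large subunit of an alternative clamp loader, had a transcript GC content of 69.1% and was at 0.11 to 0.67 TPM in DKO1 and 0.35 to 0.66 TPM in WT. TONSL, a fork chromatin factor, had 65.7% and was at 0.19 to 0.97 TPM in DKO1 and 0.32 to 0.97 TPM in WT. RECQL4, a helicase of origin firing, had 65.5% and was at 0.60 to 2.00 TPM in DKO1 and 0.42 to 1.48 TPM in WT. In CHTF18, TONSL and RECQL4 replicate 2 was the lowest sample of each group, as for CDT1 and POLD1. Level and GC content did not go together in every gene. MCM7, at 57.6% GC, averaged 106 TPM in DKO1 and 127 TPM in WT. ATAD5, at 37.4% GC, averaged 8.73 TPM in DKO1 and 15.8 TPM in WT.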
